A study of Mus musculus with 8 samples.

Results

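The chaperonin TRiC, also called CCT, is the large ring-shaped folding machine of the cytosol, and the genes of its 8 subunits are Tcp1, Cct2, Cct3, Cct4, Cct5, Cct6a, Cct7 and Cct8. They were taken by symbol from the RPKM table of DN3 thymocytes (RPKM, the reads of a gene divided by its length and the library's size), where 7 of the 8 had a row among 16538 genes. Cct6a had none and was not analysed here. GENCODE M21 types Cct6a (ENSMUSG00000029447.11) as a processed transcript, and of the 16316 genes of the table with a name in that annotation, 16112 are typed as protein-coding.

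DN3 cells are early thymocytes without CD4 and CD8 that carry CD25 and are about to undergo β-selection. They were sorted from 6-week-old C57BL/6 mice, with 4 libraries from control mice (Sel1l-f/f, titled WT in the labels) and 4 from Sel1l CKO mice (Sel1l-f/f hCD2cre+). SEL1L is the adaptor of the ER-resident ubiquitin ligase HRD1, and both genotypes carry the floxed alleles, while only the Sel1l CKO mice carry the human CD2-driven iCre, which acts from the earliest thymic progenitors on. No library of mice with iCre and intact Sel1l was analysed here, so the transgene and the loss of Sel1l cannot be told apart. The labels number the 4 libraries of a genotype without naming mice, and by the study's methods its replicates are independent biological ones. Levels come from sorted bulk cells, in which fewer cells of a type and less RNA per cell cannot be told apart.

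Each TRiC ring holds 1 copy of every subunit, and a pair of rings stacks back to back around a chamber in which substrates fold behind a built-in lid driven by ATP. Actin and tubulin cannot reach their native form without it, and many WD40 repeat proteins such as CDC20 and the β subunits of G proteins also pass through it. Prefoldin and phosducin-like proteins deliver or release substrates. TRiC works on the cytosolic side, apart from the chaperones of the ER lumen that the unfolded protein response raises.

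Sel1l itself averaged 1.67 ± 0.114 RPKM (SD, n = 4) in control libraries against 1.09 ± 0.222 RPKM (SD, n = 4) in those of Sel1l CKO, with every Sel1l CKO library below every control library (limma adjusted p = 0.0327). Without any 1 library other than Sel1l CKO replicate 3 or 4, that adjusted p rose above the threshold, to at most 0.0981. It also missed the threshold with the replicate block (0.0601), with equal RPKM sums (0.0649), without the filter on low RPKM (0.0904) and within replicates 3 and 4 (0.199). The level of Sel1l counts reads over the whole gene and not over the floxed segment alone. The study reports efficient deletion with this iCre, with quantitative RT-PCR of Sel1l in thymocyte subsets and a SEL1L western blot of DN3 and DN4 cells. Reads recovered from the RPKM steps summed to between 32900253 and 50401359 per library. The DN3 markers Il2ra (CD25), at 17.5 ± 0.689 and 19.6 ± 2.54 RPKM, and Ptcra (the pre-TCR α chain), at 27.3 ± 2.17 and 21.1 ± 4.27 RPKM (SD, n = 4 each), were well expressed in both genotypes. Of the 11 DN3 markers, none passed limma's adjusted p, against 5.28% of tested genes. In 10 the mean was lower in Sel1l CKO, and the median log2 fold change was -0.26. The groups of 3 did not overlap (Cd3e, Cd3g and Notch3), against 14.7% of tested genes. The summed level of the 11 was 398 to 494 RPKM over controls and 312 to 368 RPKM over Sel1l CKO. The 4 early progenitor markers summed to at most 0.408 RPKM in any library. RPKM here is scaled to the gene with its introns, so genes with long introns read low. Kit, at 0.360 ± 0.0266 and 0.265 ± 0.0751 RPKM (SD, n = 4 each), had from 669 to 1476 reads per library. The 6 myeloid markers summed to from 2.13 to 2.46 RPKM over controls, against 0.687 to 1.87 RPKM over Sel1l CKO. Most of that was Lyz2, at 2.26 ± 0.150 and 1.25 ± 0.406 RPKM (SD, n = 4 each). The other myeloid markers averaged at most 0.0902 RPKM in either genotype, and of them only Itgam had a lower mean in Sel1l CKO. Epcam, a marker of thymic epithelium, fell from 4.02 ± 0.751 to 2.01 ± 0.178 RPKM (SD, n = 4 each, limma adjusted p = 0.00273). The other epithelial markers were barely expressed, and none had a lower mean in Sel1l CKO. Krt8 averaged 0.0470 and 0.0498 RPKM, and Krt5, Foxn1 and Psmb11 at most 0.0358 RPKM. The B cell markers summed to between 8.22 and 10.2 RPKM in the controls but to between 5.31 and 8.22 RPKM in Sel1l CKO. Nearly all of that came from Cd79b, whose groups did not overlap. The part of such genes in the levels of TRiC was not tested. Sel1l CKO replicates 3 and 4 stood apart from replicates 1 and 2, with 34.4% of the 6512 tested genes higher in both replicates 1 and 2 than in replicates 3 and 4, and results are therefore also given within replicates 1 and 2 and within replicates 3 and 4. Neither the labels nor the methods name these replicate sets, which were known from earlier results of these data.

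RefSeq promoter windows (GRCm38.p6) were matched for 7 of the 8 subunit genes, Cct6a among them. Cct4 had no entry. The 3 subunit genes shown share GC boxes and hold the only subunit match to part of a heat shock element. Their 250 bases before the start are set beside the promoter of an ER chaperone gene. Each reads 5′ to 3′ on the strand of its gene, and they lie at chr15:31601847-31602096 (Cct5, minus strand), chr3:88296885-88297134 (Cct3, plus strand), chr10:117063853-117064102 (Cct2, minus strand) and chr15:88819396-88819645 (Creld2, plus strand). Capitals mark GC boxes and CCAAT boxes of either strand in the subunit genes. In Cct5 they also mark TTCCAGAA, the match to part of a heat shock element. In Creld2, which encodes an ER-resident protein, they mark the ER stress response element alone.
Cct5: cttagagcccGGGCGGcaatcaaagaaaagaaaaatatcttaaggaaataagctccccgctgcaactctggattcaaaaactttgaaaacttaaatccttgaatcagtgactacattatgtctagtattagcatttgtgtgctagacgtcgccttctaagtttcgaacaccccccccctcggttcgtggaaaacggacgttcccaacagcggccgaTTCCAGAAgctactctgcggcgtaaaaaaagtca
Cct3: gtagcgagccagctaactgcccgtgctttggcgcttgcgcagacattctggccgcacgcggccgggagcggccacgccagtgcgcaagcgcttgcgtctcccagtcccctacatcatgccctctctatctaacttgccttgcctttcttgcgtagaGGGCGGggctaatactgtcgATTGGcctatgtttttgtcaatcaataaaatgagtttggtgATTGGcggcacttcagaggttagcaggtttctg
Cct2: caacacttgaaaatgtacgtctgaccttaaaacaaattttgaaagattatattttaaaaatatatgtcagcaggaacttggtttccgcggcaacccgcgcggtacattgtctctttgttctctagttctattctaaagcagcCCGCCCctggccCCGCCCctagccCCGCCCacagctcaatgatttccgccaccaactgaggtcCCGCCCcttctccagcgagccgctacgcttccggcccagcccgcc
Creld2: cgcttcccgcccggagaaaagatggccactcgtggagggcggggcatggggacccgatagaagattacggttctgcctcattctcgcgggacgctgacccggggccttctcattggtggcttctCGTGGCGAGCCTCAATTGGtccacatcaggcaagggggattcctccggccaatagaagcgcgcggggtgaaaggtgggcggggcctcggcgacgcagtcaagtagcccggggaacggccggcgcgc

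Windows were searched on both strands for GC boxes, written GGGCGG, and for CCAAT boxes. For the heat shock element, the site of HSF1, only a pair of inverted GAA units was searched, in both arrangements, GAANNTTC and TTCNNGAA. A match to so short a pattern is to part of an element. The E-box was CACGTG. The ER stress response element, a site of ATF6 with NF-Y, joins a CCAAT box through 9 free bases to the letters CCACG, so each match to it also counts as a CCAAT box. A GC box was found in 7 of the 7 subunit windows, against 53.4% of the 12815 genes of the table with a window, and a CCAAT box in 4 of 7 (Tcp1, Cct3, Cct6a and Cct7) against 36.1%. The other chaperone lists held them too, the GC box in 9 of 9 inducible heat shock windows and 9 of 11 ER chaperone windows, and the CCAAT box in 4 of 9 and 11 of 11. GAANNTTC was in none of the 7 windows and TTCNNGAA in 1, that of Cct5, 34 to 27 bases before the start, against 5.45% and 6.06% of all windows. Of 9 inducible heat shock genes with a window, 3 held GAANNTTC and 1 held TTCNNGAA. The ER stress response element was in none of the 7 subunit windows, in 7 of 11 windows of ER chaperone genes and in 0.164% of all windows. The E-box was in none of the subunit windows and in 7.58% of all windows. These matches describe letters in a window and nothing about binding.

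TRiC transcripts were abundant in DN3 cells and their levels did not separate the genotypes. The mean control levels of the 7 subunits ran from 24.2 to 55.1 RPKM, and the means in Sel1l CKO were between 92.6% and 101% of control. None of the 7 passed a limma adjusted p of 0.05, where 5.28% of all tested genes did, 4.27% higher and 1.01% lower in Sel1l CKO. None had an unadjusted p under 0.05 either, against 20.8% of tested genes, and in none were the genotypes without overlap, against 14.7%. Against these background shares, 0 of 7 is by itself no result about the subunits.

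Tcp1, Cct2, Cct4 and Cct5 encode the α, β, δ and ε subunits, which sit side by side in the ring, on the side known for tighter binding of ATP. For Tcp1 (ENSMUSG00000068039.13, at 12915701 to 12925067 on chromosome 17 of GRCm38) the 4 control libraries, in replicate order here and for the other subunits, gave 52.6, 54.1, 57.2 and 56.6 RPKM, and those of Sel1l CKO gave 57.4, 61.1, 50.1 and 48.5 RPKM. Controls expressed Cct2 (ENSMUSG00000034024.8, chromosome 10 from 117051001 to 117063814) at 49.1, 50.03, 53.5 and 53.7 RPKM, against 55.1, 55.6, 48.2 and 47.8 RPKM in the Sel1l CKO libraries. In both genes Sel1l CKO replicates 1 and 2 lay above all controls and replicates 3 and 4 below all of them, so the genotype means came out almost equal. The log2 fold change was -0.028 (standard error 0.08) for Tcp1 and -0.00045 (standard error 0.07) for Cct2.

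Cct5 (ENSMUSG00000022234.15, chromosome 15 from 31590800 to 31601804) followed the same course, with controls of 54.6, 52.2, 52.1 and 53.9 RPKM and Sel1l CKO values of 59.4, 57.1, 49.2 and 49.3 RPKM. Cct4 (ENSMUSG00000007739.10, chromosome 11 from 22990519 to 23003780) had control values of 29.4, 29.4, 31.6 and 31.1 RPKM and Sel1l CKO values of 29.5, 30.1, 26.7 and 26.3 RPKM. Here replicates 1 and 2 of Sel1l CKO lay within the control range and only replicates 3 and 4 lay outside it, on the low side. The difference for Cct4, the largest of the 7, was -0.11 on the log2 scale (standard error 0.07, limma adjusted p = 0.378), and 51.9% of tested genes had a larger absolute value. That for Cct5 was 0.010 on the log2 scale (standard error 0.08, limma adjusted p = 0.956).

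Cct3, Cct7 and Cct8 encode the γ, η and θ subunits, which lie on the opposite side of the ring. Values of Cct3 (ENSMUSG00000001416.13, chromosome 3 from 88297116 to 88321767) were 24.1, 23.1, 25.5 and 24.2 RPKM in the controls, while Sel1l CKO gave 24.1, 24.6, 22.4 and 21.3 RPKM. Cct7 (ENSMUSG00000030007.8, chromosome 6 from 85451514 to 85468475) measured 30.4, 29.7, 30.3 and 28.9 RPKM across the controls and 33.9, 32.6, 27.1 and 26.6 RPKM across Sel1l CKO. The low side of the Sel1l CKO libraries was again replicates 3 and 4 in both genes, and Cct7 had the narrowest controls of the 7, with a coefficient of variation of 2.25% against 12.5% in Sel1l CKO. The controls of Cct8 (ENSMUSG00000025613.13, chromosome 16 from 87483326 to 87495873) gave 39.4, 36.1, 39.0 and 40.04 RPKM, and its Sel1l CKO libraries 40.3, 42.5, 33.8 and 33.6 RPKM. The log2 fold changes were -0.070 (standard error 0.07) for Cct3, 0.0033 (standard error 0.09) for Cct7 and -0.048 (standard error 0.09) for Cct8.

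**Figure D1:**
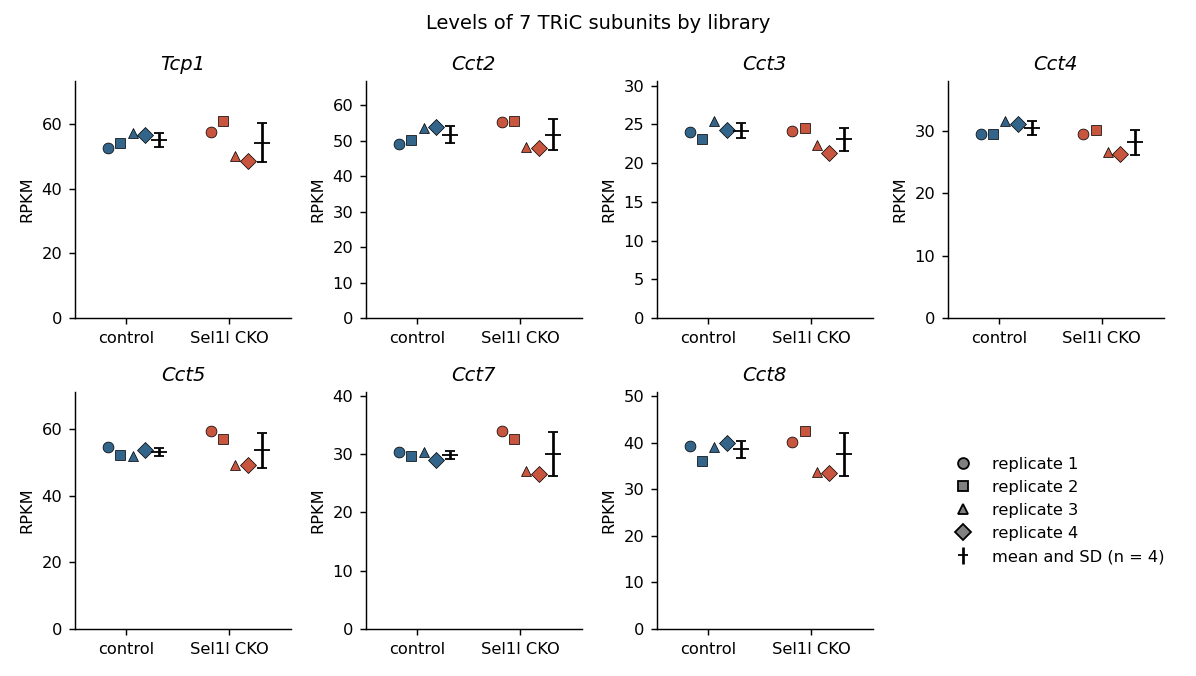
RPKM (linear axis from 0) of each of the 7 measured subunits in the 4 control (blue) and 4 Sel1l CKO (red) libraries, with the replicate number as the marker and the mean and SD (n = 4) beside the points. In every panel the Sel1l CKO circle and square (replicates 1 and 2) sit above the triangle and diamond (replicates 3 and 4), which sit below all controls.

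The 95% intervals of the log2 fold changes belong to the mean difference over all 8 libraries. The fit behind them has no term for the split among the Sel1l CKO libraries, so they do not bound the difference within a replicate set. Over the 7 subunits the lowest lower bound was -0.26, for Cct4, and the highest upper bound was 0.20, for Cct7. Exact permutation tests of the mean RPKM (two-sided, over 70 assignments of 8 libraries, smallest possible p = 0.0286) gave p from 0.171 for Cct4 to 0.943 for Cct2. The subunits had from 11460 to 35926 reads per library, for which counting alone gives a coefficient of variation of at most 0.934%. Between libraries it was from 2.25% to 4.59% in control and from 6.58% to 12.5% in Sel1l CKO. It was wider in Sel1l CKO for all 7 subunits, and for 67.2% of tested genes.

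Within replicate sets the genotype difference took opposite signs. The sets match control to Sel1l CKO libraries by number alone, which no label backs. They follow a split already seen among the Sel1l CKO libraries, so the opposite signs are no separate result from that split. All 7 subunits were higher in Sel1l CKO within replicates 1 and 2, with log2 fold changes from 0.020 (Cct4) to 0.16 (Cct2), and all 7 were lower within replicates 3 and 4, from -0.11 (Cct5) to -0.25 (Cct4). Their median was 0.13 in the first set and -0.19 in the second, while the median over all tested genes was 0.031 and 0.0017. A higher value in the first set with a lower value in the second was seen in 22.6% of tested genes. Both Sel1l CKO replicates 3 and 4 lay below every control in 7 of the 7 subunits, against 14.6% of tested genes, and both replicates 1 and 2 lay above every control in 5 of 7 (all but Cct3 and Cct4), against 28.8%.

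The difference between the sets was then fitted as an interaction of genotype with replicate set, a model chosen after these values were seen. Cct8 and Tcp1 had the largest interaction terms, at -0.36 (standard error 0.10) and -0.36 (standard error 0.09), and the smallest was that of Cct5 at -0.23 (standard error 0.09). None of the 7 passed the limma adjusted p over all tested genes, the lowest being 0.126 for Tcp1, where 0.276% of tested genes passed. All 7 had an unadjusted p under 0.05, against 19.7% of tested genes. The subunits vary together and so do not count as 7 separate observations. Sel1l had its own difference between the sets, with a log2 fold change of -0.89 within replicates 1 and 2 and -0.30 within replicates 3 and 4 (interaction, limma adjusted p = 0.108).

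**Figure D2:**
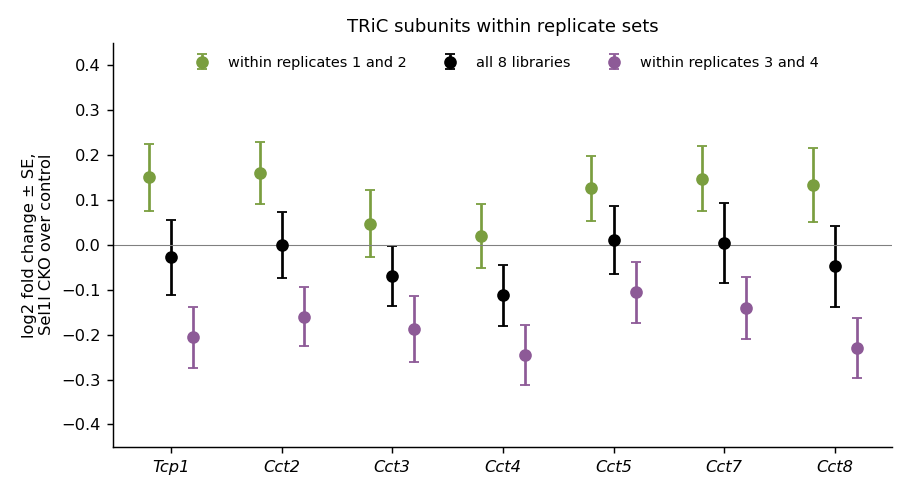
Log2 fold change of Sel1l CKO over control with its standard error (linear axis) for each subunit, within replicates 1 and 2 (green, 2 libraries a genotype), over all 8 libraries (black) and within replicates 3 and 4 (purple). The green points lie from 0.020 to 0.16 and the purple ones from -0.11 to -0.25, with the black ones in between.

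The subunits moved as a group across libraries. Over the 21 pairs of subunits, Pearson's r of log2 levels over the 8 libraries ran from 0.58 for Cct4 with Cct5 to 0.96 for Tcp1 with Cct2, with a median of 0.83, beside a median of 0.0045 over all pairs of tested genes. These points share their libraries and the scaling of each library, so r is given as a description. The summed RPKM of the 7 subunits was 279.6, 274.4, 289.2 and 288.6 over the controls, and Sel1l CKO gave 299.7, 303.6, 257.3 and 253.3. The Sel1l CKO libraries thus lay on both sides of the control range, with none inside it.

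The genes outside the complex whose level was most like the mean of the subunits over the 8 libraries were Cisd3 (r = 0.98), Kmt5a (0.98), Timm8a1 (0.98), Ndufc2 (0.96) and Idh3a (0.96). With each genotype's mean subtracted first, they were Psma3 (r = 0.996), Kmt5a (0.99), Cisd3 (0.98), Ppm1g (0.98) and Vdac2 (0.98). Psma3 encodes a proteasome core subunit, and Timm8a1, Ndufc2, Idh3a and Vdac2 encode mitochondrial proteins. Psma3 had controls of 6.47, 6.26, 6.90 and 6.89 RPKM beside Sel1l CKO values of 7.59, 7.77, 6.19 and 5.99 RPKM. It was picked for following the subunits over these same libraries, so its like split is no separate result. With 8 libraries, the highest r over all pairs of tested genes was 0.9995. None of these 8 genes passed the limma adjusted p between genotypes, and the lowest was 0.565, for Ppm1g. As the genes were chosen for likeness to the subunits, that is no result about them.

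Levels of different subunits can be compared only per length. The deposited values are scaled to the gene with its introns, on which Tcp1 was highest at 55.1 ± 2.14 RPKM and Cct3, the gene with the longest span, lowest at 24.2 ± 1.003 RPKM in control (SD, n = 4). On that scale Tcp1, Cct5 and Cct2 had overlapping control ranges, as did Cct4 and Cct7. Scaled to all annotated exons instead, Cct2 was highest at 259 ± 11.9 RPKM, followed without overlap by Cct5 at 212 ± 5.01 and Cct8 at 157 ± 7.17, and Cct7 was lowest at 74.6 ± 1.68 RPKM (SD, n = 4). Tcp1, Cct4 and Cct3 between them overlapped from each to the next. Exons of every annotated transcript enter that length, so it was also set to the longest coding transcript. Cct2 was then again highest at 338 ± 15.5 RPKM, Cct5 and Cct3 followed with overlapping ranges, and Cct4 was lowest at 162 ± 6.16 RPKM (SD, n = 4). The highest and lowest subunits differed by 2.28 times as deposited, 3.47 times on exons and 2.08 times on the longest coding transcript. Cct2 and Cct5 were the top subunits on both scales without introns.

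**Figure D3:**
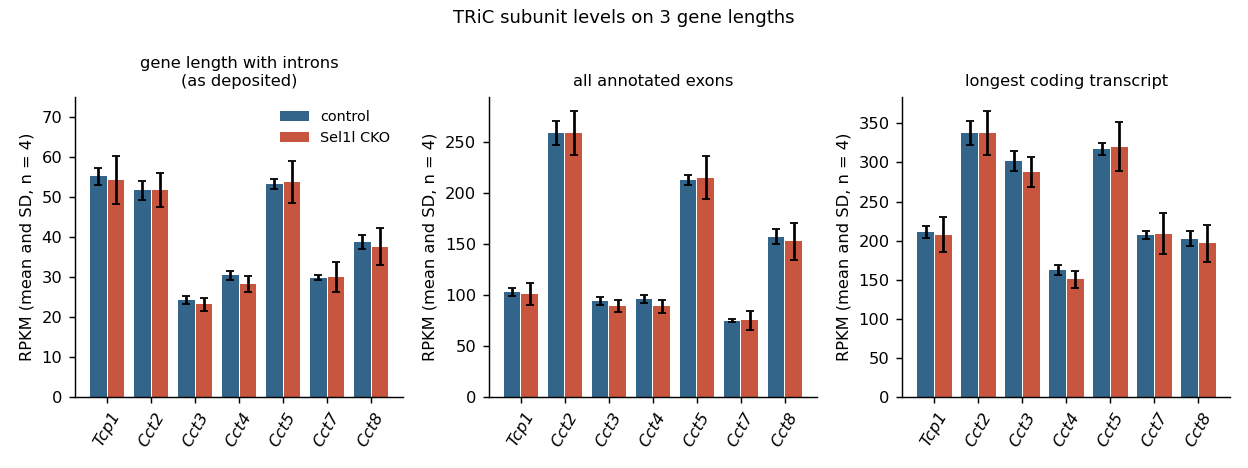
Mean RPKM and SD (n = 4, bars from 0) of the 7 subunits in control (blue) and Sel1l CKO (red) on the deposited gene length with introns, on all annotated exons and on the longest coding transcript. The order of the subunits changes with the length, while the blue and red bars of a subunit stay within 1 SD of Sel1l CKO except for Cct4 (28.1 ± 1.97 against 30.4 RPKM as deposited).

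The balance between subunits was nearly the same in both genotypes. On exon length, the share of each subunit in the summed level moved by at most 0.566 percentage points, for Cct4, from 9.64% ± 0.159 in control to 9.08% ± 0.227 in Sel1l CKO (SD, n = 4 each). Cct5 moved by 0.526 points, from 21.4% ± 0.710 to 21.9% ± 0.468. Cct4 was the 1 subunit of 7 whose level relative to the summed level of all 7 did not overlap between genotypes, and 13.4% of tested genes set against that sum did not overlap either. At that background, 1 of 7 is not a result about Cct4.

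The partners and substrates of TRiC were described from lists of related genes. Over all tested genes 4.27% passed as higher and 1.01% as lower in Sel1l CKO, and 14.7% did not overlap. Beside these shares, 1 call in a short list is by itself no result about the list. None of the 4 tested prefoldin genes passed, and Pfdn6, the one with the lowest p, was at 48.6 ± 1.79 and 54.3 ± 5.01 RPKM (SD, n = 4 each, limma adjusted p = 0.285). Of 3 tested phosducin-like genes, 1 passed. It was Pdcl, which encodes the PhLP1 cofactor of G protein β folding on TRiC, with controls of 2.21, 2.46, 2.38 and 2.65 RPKM and Sel1l CKO values of 3.20, 3.40, 3.92 and 3.67 RPKM. All 4 Sel1l CKO libraries lay above all controls (0.53 ± 0.08 on the log2 scale, standard error, limma adjusted p = 0.0061).

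Among the 11 tested actin and tubulin genes, 1 rose and none fell, against 4.27% and 1.01% of tested genes, with a median log2 fold change of 0.19. Tuba1a, an α-tubulin, rose from 54.1 ± 3.82 to 78.7 ± 9.78 RPKM (SD, n = 4 each, limma adjusted p = 0.0120) with no overlap. Its Sel1l CKO replicates 1 and 2, at 87.8 and 86.3 RPKM, were above replicates 3 and 4, at 71.8 and 68.8 RPKM. Of the 4 tested tubulin folding cofactors, which take over tubulin after TRiC, 1 rose, Tbcb, from 4.39 ± 0.329 to 6.66 ± 0.391 RPKM (SD, n = 4 each, limma adjusted p = 0.00143). None of the 5 tested WD40 substrates passed, and Cdc20 was at 31.0 ± 8.09 and 41.6 ± 8.04 RPKM (SD, n = 4 each, limma adjusted p = 0.268). Within replicates 1 and 2 alone, with 2 libraries a genotype, Cdc20 was among 585 genes that passed (log2 fold change 0.56, limma adjusted p = 0.0287). Within replicates 3 and 4 its limma adjusted p was 0.641. The chaperonin-like Mkks, the 1 tested gene of 5 in its list, averaged 1.152 and 1.148 RPKM in control and Sel1l CKO, and Cct6b, the testis paralogue of Cct6a, was at most at 0.0169 RPKM.

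Other chaperone systems differed between the genotypes where TRiC did not pass the test. All 13 ER chaperone genes rose, against 4.27% of tested genes, with a median log2 fold change of 1.66. Their groups did not overlap in any of the 13, against 14.7% of tested genes. The largest rises were those of Sdf2l1 (2.51), Hyou1 (2.05), Creld2 (2.02) and Manf (1.83), whose products work in the ER lumen. Of 6 tested inducible cytosolic heat shock genes 5 fell, against 1.01% of tested genes, with a median log2 fold change of -0.93 over the 6. Of these 5 calls, Hsph1 and Hsp90aa1 passed without any 1 library. Chordc1, an HSP90 cochaperone, missed the threshold without control replicate 1 or Sel1l CKO replicate 1, with an adjusted p of at most 0.0596. Hspa1a, an inducible HSP70 whose reads cannot be cleanly told from its near-identical copy Hspa1b, so that the pair is 1 observation rather than 2, had controls of 50.5, 16.1, 460.5 and 1059 RPKM beside Sel1l CKO values of 7.18, 3.75, 2.14 and 3.15 RPKM (limma adjusted p = 0.0338). Its control replicates 3 and 4 lay far above replicates 1 and 2, and without any 1 library other than control replicate 1 or 2 neither copy passed, with an adjusted p of at most 0.0944. Hsph1, the HSP110 exchange factor, fell from 33.7 ± 8.70 to 16.6 ± 1.36 RPKM and Hsp90aa1, the inducible HSP90, from 152 ± 23.1 to 93.3 ± 9.50 RPKM (SD, n = 4 each, limma adjusted p = 0.00786 and 0.00965).

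The constitutive HSP70 and HSP90 system, which hands substrates to TRiC, had 14 tested genes, of which 1 fell (Dnaja1, a J-domain partner of HSP70, log2 fold change -0.53, limma adjusted p = 0.0187, and 0.0510 without Sel1l CKO replicate 1) and none rose, with a median of -0.11. Of 5 tested mitochondrial chaperone genes 1 rose, Grpel1, the exchange factor of mitochondrial HSP70 (log2 fold change 0.27, limma adjusted p = 0.0367, and from 0.0516 to 0.113 without any 1 library), and the median was -0.012. Over all tested genes 4.27% rose and 1.01% fell, so 1 call in either list is by itself no result about the list. The median over all tested genes was 0.010, and that of the TRiC subunits was -0.028. The TRiC list thus lay nearer to all genes than to the ER or the inducible cytosolic chaperones. The transcript of HSF1, the heat shock transcription factor, was at 4.38 ± 0.212 and 4.30 ± 0.423 RPKM (SD, n = 4 each, limma adjusted p = 0.871). Hsf2, below the level tested with limma, was at 0.662 ± 0.0293 and 0.509 ± 0.0163 RPKM (exact permutation test, two-sided, unadjusted p = 0.0286). That is the smallest p the test allows, reached where the groups do not overlap, as in 14.7% of tested genes. Myc was at 58.4 ± 4.39 and 62.7 ± 10.5 RPKM (limma adjusted p = 0.668).

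**Figure D4:**
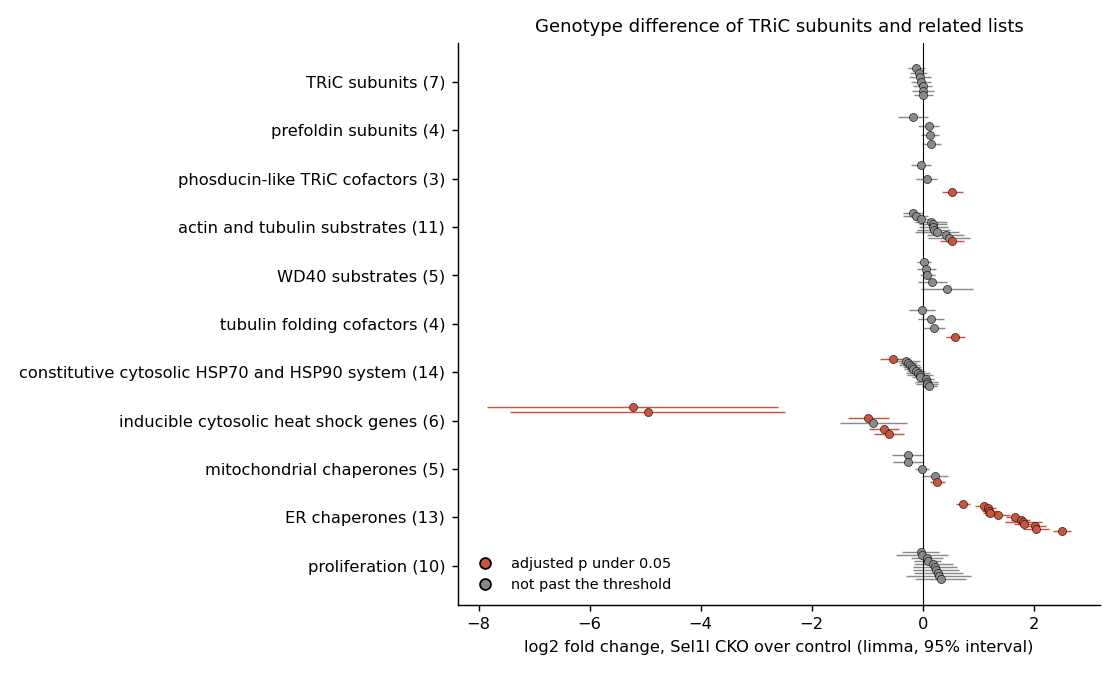
Log2 fold change of Sel1l CKO over control with its 95% interval (linear axis) for every tested gene of the TRiC list and of related lists, the number of tested genes in brackets and genes past the adjusted p in red. The 7 TRiC subunits lie between -0.11 and 0.010, while the 13 ER chaperone genes have a median of 1.66 and the 6 inducible heat shock genes one of -0.93.

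Library by library, the mean log2 level of the 7 subunits, relative to the control mean, was -0.014, -0.046, 0.036 and 0.024 in the controls and 0.073, 0.091, -0.14 and -0.17 in the Sel1l CKO libraries. The 10 proliferation genes were at 0.16, 0.012, -0.36 and 0.19 in control and at 0.36, 0.48, -0.080 and -0.096 in Sel1l CKO. None of them passed between genotypes, and Cdk1, the mitotic kinase with the lowest p, had a limma adjusted p of 0.393 over all libraries. Within replicates 1 and 2, with 2 libraries a genotype, Cdk1 was among 585 genes that passed (limma adjusted p = 0.0287). The proliferation genes shared with TRiC the higher values of Sel1l CKO replicates 1 and 2, and differed from it in control replicate 3, where among the 4 controls they were lowest and TRiC was highest. The mitochondrial chaperones were at 0.060, 0.13, -0.094 and -0.13 in Sel1l CKO replicates 1 to 4, the same split again. The inducible heat shock genes were at -0.59, -1.24, 0.79 and 1.04 in control and between -1.85 and -2.51 in Sel1l CKO, so their range among controls was far wider than that of TRiC. ER chaperones were between 1.45 and 1.65 in all 4 Sel1l CKO libraries. The part of proliferation or of heat shock in the levels of TRiC was not tested.

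**Figure D5:**
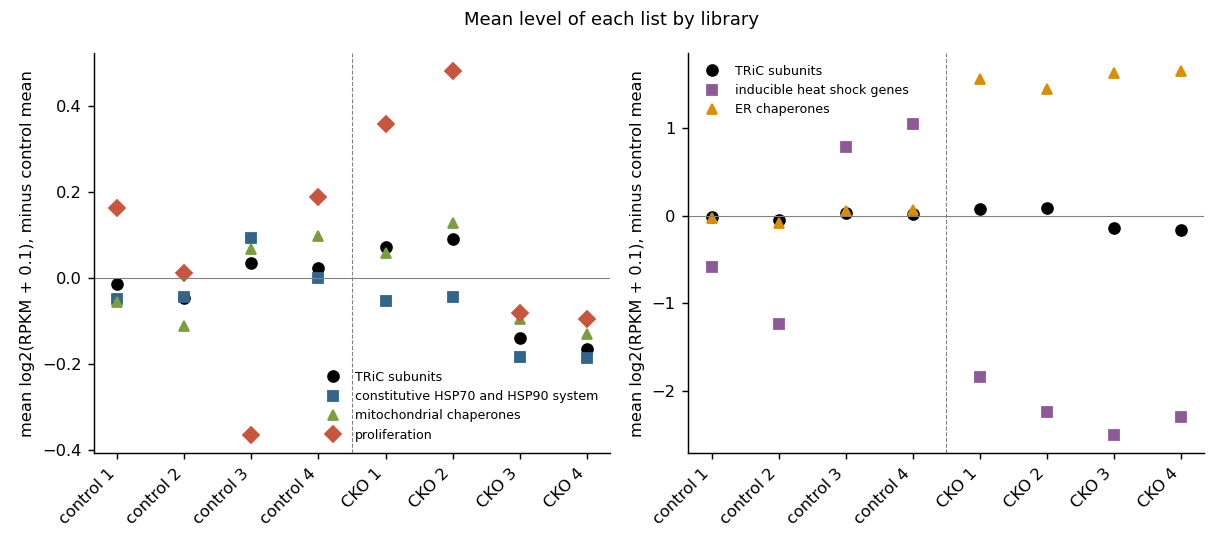
Mean log2(RPKM + 0.1) of each list in each library, minus the mean of the 4 controls (linear axes with different ranges left and right), with control libraries left of the dashed line and Sel1l CKO libraries right of it. TRiC (black) stays between -0.17 and 0.091, with Sel1l CKO replicates 1 and 2 above 0 and replicates 3 and 4 below it, while ER chaperones lie above 1.45 and inducible heat shock genes under -1.85 in Sel1l CKO.

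Some reads of 3 subunits could belong to neighbours. Tcp1 overlaps Mrpl18 by 645 bases and Acat3 by 1255 bases, Cct7 overlaps Pradc1 by 457 bases and Cct8 overlaps Usp16 by 192 bases, each on the opposite strand, and while the library kit marks the strand, the sources used here do not say whether the counting used it. Cct2, Cct3, Cct4 and Cct5, which overlap no other gene of the table, ran from a log2 fold change of -0.11 to 0.010.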

How the data were processed

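RNA of sorted DN3 thymocytes was measured in 4 control and 4 Sel1l CKO libraries, grouped by the sample titles. The authors prepared stranded mRNA libraries, aligned paired-end reads to GRCm38 with STAR 2.5.2b, took counts for protein-coding genes from HTSeq 2.7 and deposited a table in RPKM. The authors' count model, DESeq2, was not applied here, since RPKM values are not counts. With the gene spans of GENCODE M21, 75.3% of 15643 genes with a value came out as whole reads (within 0.02 reads) in every library, against 3.24% on exon length. A length solved from the values gave 3352 more genes, Cct2, Cct5 and Cct7 among them. The reads recovered in this way hold at least 95.1% of each library's total.

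Values were transformed as log2(RPKM + 0.1), so that fold changes of low genes are understated. The 2 genotypes were compared by limma 3.58.1 in R 4.3.3 where a gene averaged 1 RPKM or more (eBayes with trend, no other term, two-sided, Benjamini-Hochberg adjustment over all 6512 tested genes, threshold 0.05). As RPKM is scaled here to the gene with its introns, this cut also left out long genes with many reads. Among them were Rptor, at 3190 to 5309 reads per library, and Tbcd, at 2721 to 5055. Every share of tested genes rests on this cut. The procedure was run on simulated data with independent noise in each gene and library. Those data lack the split among the Sel1l CKO libraries, so they do not show how the procedure behaves under it. Permutation tests used scipy 1.17.1. The alternatives were 14 other settings and 8 fits without 1 library each. The members and lists were chosen with earlier results of these data known. Genes named outside TRiC are, per list, those past the adjusted p (up to 4, by size of change) or else the one with the lowest p, besides Sel1l, HSF genes, Myc and the genes most like TRiC; a few others are named as markers or where a count includes them.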

Additional observations from a re-analysis of the deposited data

Results flagged for a closer look

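Among 36 named genes, each with 4 libraries a genotype, 1 of 72 groups held a library far from the other 3, where chance gives about 3.6. It was Dnaja1, the J-domain partner of HSP70, at 40.8 RPKM in control replicate 3 against 28.8 to 30.8 RPKM in the other controls. No TRiC subunit had such a library in either genotype.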

How the results depend on the processing

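None of the 7 subunits passed an adjusted p of 0.05 in any of 154 fits under 14 alternatives and 8 omissions of a library (limma adjusted p from 0.0779 to 0.999), and in 26 of them the sign changed. The signs of differences this close to 0 are therefore not stable. Within replicates 1 and 2 the log2 fold change became 0.15 (Tcp1), 0.16 (Cct2), 0.047 (Cct3), 0.020 (Cct4), 0.13 (Cct8) and 0.017 (Mkks), and within replicates 3 and 4 it became -0.11 (Cct5), -0.14 (Cct7) and 0.018 (Hsf1). With quantile normalization it was -0.040 (Cct5), -0.056 (Cct7) and 0.045 (Mkks), with limma array weights -0.087 (Cct5), -0.10 (Cct7), 0.037 (Hsf1) and -0.0058 (Myc), with equal RPKM sums -0.0012 (Cct7), with median-of-ratios scaling 0.014 (Cct2) and 0.0086 (Mkks) and with limma voom on recovered reads 0.0012 (Cct2). The median over the subunits was 0.13 within replicates 1 and 2, -0.19 within replicates 3 and 4 and otherwise within 1 SD of its value.

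Leaving out 1 library at a time gave a median from -0.087 to 0.024, with -0.087 without Sel1l CKO replicate 2 and 0.024 without Sel1l CKO replicate 4. The log2 fold change then ran from -0.087 to 0.024 for Tcp1, from -0.037 to 0.036 for Cct2, from -0.040 to 0.051 for Cct5, from -0.057 to 0.059 for Cct7, from -0.11 to 0.0029 for Cct8, from -0.080 to 0.031 for Hsf1, from -0.018 to 0.15 for Myc and from -0.025 to 0.014 for Mkks, and the largest shift in share from 0.533 to 0.788 percentage points. The number of genes called, 344, was 218 with a mean RPKM of at least 5, 640 with array weights, 525 with replicate set as a batch term, 585 within replicates 1 and 2 and from 244 to 314 without 1 library. The causes were not tested. With the replicate block, the number as a term, 317 genes passed and no subunit, with a limma adjusted p of at least 0.483 (Cct4). Of the calls named, those of Sel1l (0.0601) and Grpel1 (0.104) were lost under it. Same-numbered libraries did not deviate together in every pair (r = 0.16, 0.097, 0.44 and 0.0051). Control replicates 1 and 2 had r from 0.097 to 0.29 with Sel1l CKO replicates 1 and 2, and from -0.25 to -0.22 with replicates 3 and 4. Control replicate 3 had r of -0.38, -0.36, 0.44 and 0.40 with Sel1l CKO replicates 1 to 4, and control replicate 4 stayed between -0.083 and 0.087. These correlations cannot decide whether the numbers pair libraries or sets of libraries.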
